A study of Mus musculus with 2 samples.

Results

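Alveolar macrophages that carried messenger RNA of the cell division machinery were picked out of single cell RNA sequencing of mouse lung and compared with the non-dividing alveolar macrophages of the same lungs. The study sorted macrophages and dendritic cells from digested lungs of female C57BL/6J mice by MHC-II, Ly6C, CD64, MerTK and the integrins CD11b and CD11c. The lungs of 8 animals were pooled. A hashtag antibody marked the treatment of a cell, a barcoded antibody read its surface level of the lectin receptor CLEC12A, and the treatments were combined in equal numbers on 2 lanes of a 3′ Chromium v3 run. The tolerance pool (labelled Tolerization protocol) came from mice that inhaled the allergen ovalbumin (OVA) before the asthma protocol. The asthma pool (labelled OVA) came from mice sensitized to OVA with the aluminium adjuvant Alum and then challenged with intranasal OVA. The control pool (labelled Alum) came from mice given Alum without OVA and intranasal saline. The 2 lanes are technical repeats. With a single pool of mice a treatment, treatments could not be tested against each other. Where both kinds of cell came from every pool, the pool was the replicate (n = 3). The kinds were compared within pools, so p-values measure only how their difference varied over these pools. Each pool is also a different treatment, so this variation includes any effect of treatment on the difference.

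Members were chosen by their own reads. A cell that passed the quality limits (at most 20% mitochondrial and at most 20000 total unique molecular identifiers, UMIs, and at least 500 genes) belonged to the alveolar gate if it met 3 conditions. It held at least 10 UMIs of Chil3, Ear1 and Krt79 per 10000, fewer than 5 UMIs of C1qa, C1qb and C1qc, and none of Cd209a, Xcr1 and Ccr7. Cells of the gate with at least 5 UMIs over the 6 division genes Top2a, Mki67, Birc5, Cdk1, Pclaf and Rrm2 were called cycling. Of 10901 barcodes 10088 passed, 5210 were in the alveolar gate and 228 were cycling, 63 in the tolerance pool, 85 in the asthma pool and 80 in the control pool. The other 4982 cells of the gate (887, 1737 and 2358 in the same pools) are called non-cycling.

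Alveolar macrophages live on the airspace side of the lung, take up and break down surfactant lipid, and in adult mice renew largely by dividing in place under the growth factor GM-CSF. A dividing cell first licenses and copies its DNA (S phase), under transcription factors of the E2F family. It then builds the spindle and the kinetochores that separate the chromosomes (mitosis), under the factors B-MYB and FOXM1. The anaphase-promoting complex, a ubiquitin ligase, destroys cyclin B1 and other mitotic proteins at its end. Cyclins of the D type link growth factor signals to the start of the cycle, and a set of small inhibitor proteins holds the kinases back.

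The 6 matrices of lane and pool held 7897139 to 11459855 UMIs each. No barcode of one lane occurred in the other, and the members had 99.1% to 99.3% of their hashtag UMIs from the hashtag of their own pool. Members had a median of 8165, 5923 and 8288 UMIs in the tolerance, asthma and control pools, against 5454, 4413 and 4940.5 in non-cycling cells. An automatic doublet caller (Scrublet) called 0.0585% of cells in lane 1 and 0.121% in lane 2, too few to be usable, and 1 member was among the 2% of cells with the highest scores.

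The 6 division genes, which chose the members, separated the cells of the gate with few in between. Of the 5210 cells 4553 held 0 of their UMIs, 348 held 1, 10 held 4 and 15 held 5, the threshold, while 162 held over 10. The 15 members just inside the threshold had a median of 5938 total UMIs, and the 10 cells just outside 5600. Top2a, a topoisomerase that untangles copied DNA, had a UMI in 82.5%, 82.4% and 90.0% of members of the tolerance, asthma and control pools, against 2.37%, 1.55% and 1.74% of non-cycling cells. Mki67, the proliferation antigen, stood at 408, 439 and 728 CPM (UMIs per 1000000 UMIs of the class) in members, against 6.33, 6.80 and 5.69 CPM in non-cycling cells. These values describe the choice and are not a result.

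The label was checked against markers that the rule did not use. Stmn1, a tubulin-binding protein of dividing cells, stood at 1335, 1393 and 2078 CPM in cycling cells of the tolerance, asthma and control pools, against 39.6, 43.6 and 52.3 CPM in non-cycling cells. The other 7 alveolar macrophage markers (Ear2, Car4, Siglecf, Fabp4, Marco, Plet1 and Ctsk) summed to 4290.0, 3904 and 3528 CPM in cycling cells, against 5344, 5105 and 4767 CPM in non-cycling cells. In dividing cells of the C1q gate they summed to 439 and 834 CPM in the tolerance and asthma pools. Chil3, a chitinase-like protein used by the rule, stood at 47492, 32778 and 11488 CPM in cycling cells and at 48944, 43662 and 11903 CPM in non-cycling cells. Both parts of the label therefore held for markers outside the rule.

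Markers of lymphocytes were at or near 0 among members, and those of myeloid cells ranged more widely. The 7 natural killer markers were at 0 in all 3 pools, and 8 T cell markers gave 0, 1.92 and 0 CPM in cycling cells of the tolerance, asthma and control pools, against 5.93, 4.98 and 4.65 CPM in non-cycling cells. The 11 interstitial macrophage markers outside the rule summed to 141, 107 and 39.2 CPM in cycling cells, against 317, 167 and 117 CPM in non-cycling cells. The 7 neutrophil markers, with Ly6g at 0 in both classes, summed to 27.4, 36.4 and 47.9 CPM in cycling cells, against 249, 97.2 and 75.7 CPM in non-cycling cells. The monocyte markers summed to 470.4, 452 and 505 CPM in cycling cells, mostly Nr4a1, against 622, 496 and 704 CPM in non-cycling cells. Markers of type 2 conventional dendritic cells outside the rule summed to 831, 1071 and 819 CPM in cycling cells, of which 760.4, 993 and 812 CPM were Sirpa, against 1078, 1298 and 1177 CPM in non-cycling cells. Those of type 1 summed to 227, 226 and 263 CPM in cycling cells, mostly Irf8, against 199.9, 198 and 245 CPM in non-cycling cells, and Itgae and Cadm1 were at 0 in cycling cells. At least 2 UMIs from the markers of any of 6 other types (T, B, natural killer, endothelial or epithelial cell or neutrophil) were held by 94 of 228 members and 2038 of 4982 non-cycling cells. A further fit left out these 94 members but kept all non-cycling cells, so the 2 classes were not treated alike in it. The part of such cells in the results was not tested otherwise. Of 677 cells with B cell markers 9.60% and of 198 cells with T cell markers 8.59% passed the alveolar threshold of 10, and the part of free Chil3 RNA or of doublets in this was not tested. The lowest member stood at 58.4 UMIs of the 3 alveolar genes per 10000 and the lowest non-cycling cell at 10.04. Counts are therefore also given with the threshold at 50, chosen after seeing the data, which removed 0 members.

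Cycling cells made up 6.63% of the alveolar gate in the tolerance pool (exact Clopper-Pearson 95% interval 5.13 to 8.41%, 63 of 950 cells), 4.67% in the asthma pool (3.74 to 5.74%, 85 of 1822) and 3.28% in the control pool (2.61 to 4.07%, 80 of 2438). The interval of the tolerance pool lay above that of the control pool, and that of the asthma pool overlapped both. Lanes 1 and 2 gave 6.79% and 6.47% in the tolerance pool, 4.84% and 4.48% in the asthma pool and 2.75% and 3.83% in the control pool, so the order of the pools was the same in both lanes. With cells thinned to 3000 UMIs the shares were 5.19%, 4.35% and 2.95% in that order of pools. Cells under 3000 UMIs were left out of this, which kept 810, 1425 and 2239 cells of the gate. Among cells of 5000 to 20000 UMIs they were 9.08%, 7.71% and 6.21%, with intervals (6.85 to 11.7%, 5.89 to 9.88% and 4.91 to 7.72%) that all overlapped. The intervals cover counting error only, and with 1 pool a treatment the spread between mice is unknown. Cells past the same division threshold made up 12.0%, 14.4% and 9.09% of the 499, 320 and 55 cells of the C1q gate in the tolerance, asthma and control pools, and 27.0%, 15.04% and 12.9% of the 74, 113 and 62 cells with Xcr1.

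**Figure D1:**
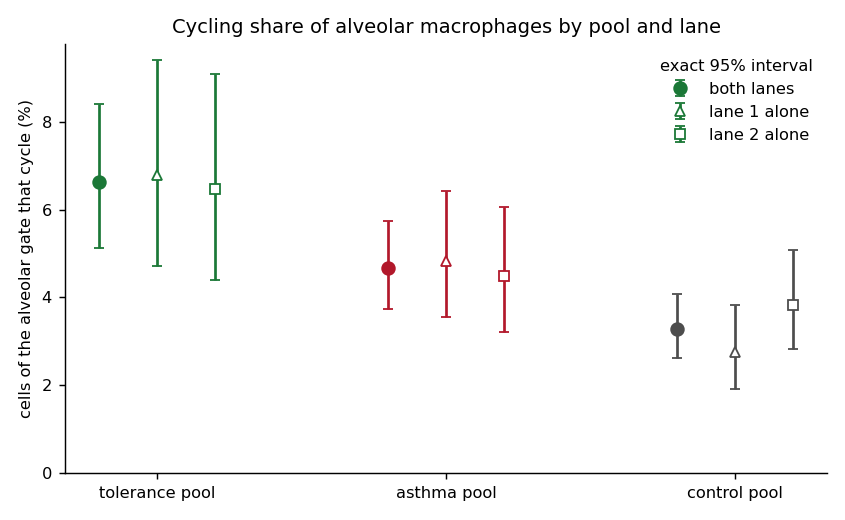
Share of cells of the alveolar gate that are cycling (y axis, %) in the tolerance, asthma and control pools, with both lanes together (filled) and each lane alone (open), and exact 95% binomial intervals that cover counting error only. The shares with both lanes are 6.63%, 4.67% and 3.28%, and each lane keeps this order.

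How cycling cells differed from non-cycling alveolar macrophages of the same pool was tested with edgeR's quasi-likelihood test on UMIs summed per pool and class, with the pool as a block and Benjamini-Hochberg adjustment at 0.05. The 15 genes of the rule were left out. Of 9776 genes tested, 1325 (13.6%) were higher and 1212 (12.4%) lower in cycling cells, and the median log2 fold change over all genes was -0.05. DESeq2 called 882 higher and 495 lower, and without the pool block 858 were higher and 198 lower. Without the asthma pool 769 were lower. The cells were chosen by 6 division genes, so the counts of division lists below describe these cells and are not independent evidence that they divide. The gene lists were written with earlier results of these data known. All adjusted p-values come from this edgeR fit over all genes, and log2 fold changes are given with their standard error (SE).

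**Figure D2:**
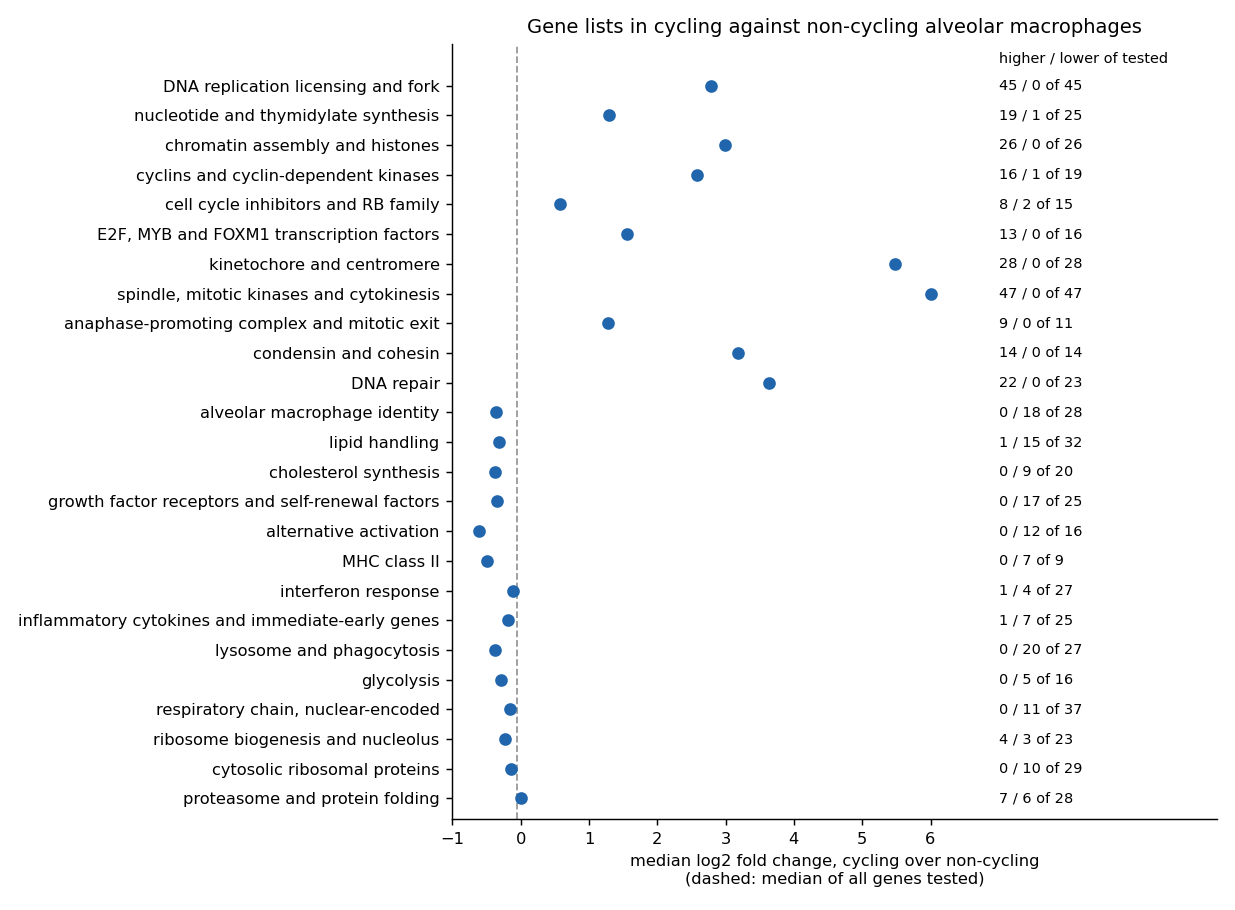
Median log2 fold change (x axis) of cycling over non-cycling alveolar macrophages for each gene list (rows), with the number of members higher and lower past the test of those tested at the right. The division lists lie between 0.57 and 6.01, and the other lists lie at or below 0, down to -0.61, with the median of all genes at -0.05.

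Genes of DNA replication rose together. All 45 genes of licensing, origin firing and the replication fork were higher, with a median log2 fold change of 2.79. Mcm10, which helps to start replication, stood at 60.8, 69.0 and 59.5 CPM in cycling cells of the tolerance, asthma and control pools, against 2.37, 2.31 and 1.04 CPM in non-cycling cells (log2 fold change 5.07, SE 0.28, adjusted p = 1.5e-17). Cdc45, a part of the replicative helicase, stood at 72.5, 53.7 and 58.1 CPM in cycling and 1.58, 2.67 and 2.25 CPM in non-cycling cells (log2 fold change 4.66, SE 0.27). The groups did not overlap for either gene. Genes with a base level outside division changed less: Pcna, the sliding clamp that holds the polymerase on DNA, stood at 267, 286 and 253 CPM in cycling and 49.0, 58.0 and 49.1 CPM in non-cycling cells (log2 fold change 2.28, SE 0.11). Of 25 genes of nucleotide and thymidylate synthesis 19 were higher and 1 lower. Tk1, thymidine kinase, led them at 88.2, 92.0 and 184 CPM in cycling and 2.37, 2.43 and 2.97 CPM in non-cycling cells (log2 fold change 5.53, SE 0.21). Rrm1 (3.90) and Tyms (3.57), which make deoxynucleotides, were higher too.

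Histone genes did not all change in the same direction. All 26 tested genes of the list of chromatin assembly and histones were higher, with a median log2 fold change of 3.00. Hist1h1b, a linker histone, stood at 82.3, 53.7 and 118 CPM in cycling and 0, 0.243 and 0.321 CPM in non-cycling cells of the tolerance, asthma and control pools (log2 fold change 8.38, SE 0.33, adjusted p = 8.44e-22). Hist1h2ap gave 27 UMIs in cycling and 2 UMIs in non-cycling cells, a ratio of 202 per UMI sequenced with a counting interval of 50.8 to 1754. Asf1b, a histone chaperone, had a log2 fold change of 5.14 (SE 0.21) and Hmgb2, a chromatin protein, of 3.57 (SE 0.08). Lower values were found for a pair of genes outside the list. Hist1h2bc, an H2B gene (ENSMUSG00000018102), stood at 19.6, 19.2 and 34.9 CPM in cycling and 135, 138 and 247 CPM in non-cycling cells (log2 fold change -2.89, SE 0.17, adjusted p = 8.23e-17), the lowest value among genes outside the lists with at least 50 CPM. Hist1h1c, another linker histone, stood at 31.4, 42.2 and 29.0 CPM in cycling and 65.5, 70.5 and 77.5 CPM in non-cycling cells (log2 fold change -1.16, SE 0.18). Both were lower in every pool with no overlap between the groups. Most histone messengers of S phase end without a poly(A) tail, and the 3′ chemistry primes on that tail, so the levels of different histone genes are not comparable.

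Of 19 cyclins and cyclin-dependent kinases 16 were higher and 1 lower. Ccna2, cyclin A2 of S phase and G2, stood at 199.9, 255 and 267 CPM in cycling cells of the tolerance, asthma and control pools, against 1.58, 1.21 and 0.160 CPM in non-cycling cells (log2 fold change 8.17, SE 0.23, adjusted p = 1.46e-25). Ccnb1, the mitotic cyclin B1, stood at 58.8, 105 and 151 CPM in cycling and 1.38, 1.33 and 0.802 CPM in non-cycling cells (log2 fold change 6.61, SE 0.26). Cdc25c, the phosphatase that opens mitosis, gave 23 UMIs in cycling cells and 0 in non-cycling cells, at least 115-fold higher with 3 counts over the group as the floor. The 3 cyclins D, which pass growth factor signals to the cycle, differed among themselves. Ccnd2 stood at 255, 278 and 243 CPM in cycling and 381, 422 and 469 CPM in non-cycling cells (log2 fold change -0.80, SE 0.09, adjusted p = 6.13e-09), lower in every pool without overlap. Ccnd1 gave only 4 UMIs in cycling cells and 109 in non-cycling cells and did not pass (log2 fold change -1.05, SE 0.72). Ccnd3 was higher at 119.5, 80.5 and 141 CPM in cycling and 82.9, 61.4 and 91.2 CPM in non-cycling cells (log2 fold change 0.46, SE 0.13), with groups that overlapped. It did not pass in DESeq2 (0.45), without the pool block (0.46), without the control pool (0.41), in lane 2 alone (0.40) or with members holding markers of other types left out (0.44). Their partner Cdk4 stood at 98.0, 76.7 and 90.0 CPM in cycling and 57.5, 53.2 and 44.4 CPM in non-cycling cells (log2 fold change 0.71, SE 0.15), and did not pass in lane 2 alone (0.44), without the pool block (0.69) or in cells thinned to 3000 UMIs (0.38). Cdk6 did not pass at 99.9, 115 and 121 CPM in cycling and 87.2, 107 and 168 CPM in non-cycling cells.

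Among genes that restrain the cycle, 8 of 15 inhibitors and RB family members were higher and 2 lower. The higher share was above the 13.6% of all genes, and the lower share was near their 12.4%. Cdkn2c, an inhibitor of CDK4 and CDK6, stood at 51.0, 47.9 and 78.4 CPM in cycling and 1.78, 1.94 and 2.17 CPM in non-cycling cells of the tolerance, asthma and control pools (log2 fold change 4.86, SE 0.27, adjusted p = 1.46e-17). Cdkn2a, which encodes p16 and p19, was also higher, with 31 UMIs in cycling and 28 in non-cycling cells (log2 fold change 4.005, SE 0.46). Cdkn1a, the p21 inhibitor, stood at 780.0, 839 and 771 CPM in cycling and 535, 435 and 553 CPM in non-cycling cells (log2 fold change 0.57, SE 0.08). The antiproliferative genes Btg1 and Btg2 were the members that fell, with log2 fold changes of -0.57 (SE 0.08) and -0.72 (SE 0.11), Btg2 not past the test without the pool block (-0.74). Of 16 E2F, MYB and FOXM1 genes 13 were higher. The repressors E2f7 and E2f8 had log2 fold changes of 7.02 (SE 0.35) and 6.37 (SE 0.30), Foxm1 of 6.89 (SE 0.32) and Mybl2, which encodes B-MYB, of 4.64 (SE 0.43). The activator E2f1 changed less, at 86.2, 90.1 and 90.0 CPM in cycling and 27.9, 30.6 and 41.0 CPM in non-cycling cells (log2 fold change 1.32, SE 0.15).

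The mitotic lists had the highest medians. All 28 genes of kinetochore and centromere (median log2 fold change 5.49) and all 47 of spindle, mitotic kinases and cytokinesis (6.01) were higher. Nuf2, a microtubule-binding kinetochore subunit, stood at 72.5, 70.9 and 97.3 CPM in cycling cells of the tolerance, asthma and control pools, against 0, 0.364 and 0.0802 CPM in non-cycling cells (log2 fold change 8.77, SE 0.36, adjusted p = 3.78e-21). Cenpf, a kinetochore protein, stood at 209.7, 153 and 328 CPM in cycling and 1.38, 1.82 and 0.802 CPM in non-cycling cells (log2 fold change 7.50, SE 0.22). Kif2c and Kif11, spindle motors, had log2 fold changes of 8.14 (SE 0.39) and 7.53 (SE 0.22), and the checkpoint kinase Bub1 of 8.12 (SE 0.28). Summed over the spindle list, cycling cells stood at 8713, 9788 and 12677 CPM, against 1056, 1192 and 1146 CPM in non-cycling cells, and over the kinetochore list at 1862, 2143 and 2679.5 CPM, against 109, 117 and 132 CPM in non-cycling cells. Of 11 genes of the anaphase-promoting complex and mitotic exit 9 were higher. Its E2 enzyme Ube2c stood at 382, 419.7 and 562 CPM in cycling and 4.75, 3.16 and 3.69 CPM in non-cycling cells (log2 fold change 6.90, SE 0.14, adjusted p = 5e-30), and its activator Cdc20 at 84.3, 144 and 116 CPM in cycling and 1.19, 1.33 and 0.802 CPM in non-cycling cells. Pttg1, securin, which blocks the separation of the chromatids until anaphase, did not pass at 68.6, 70.9 and 56.6 CPM in cycling and 69.0, 66.3 and 57.6 CPM in non-cycling cells. All 14 genes of condensin and cohesin were higher, led by Esco2 (log2 fold change 8.40, SE 0.29), the acetyltransferase that sets cohesion in S phase, and so were 22 of 23 genes of DNA repair, led by Rad51ap1 (6.31, SE 0.28).

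Messengers of the differentiated alveolar macrophage made up a smaller share of the RNA of cycling cells. Of 28 tested identity genes 0 were higher and 18 lower, with a median log2 fold change of -0.36 against -0.05 over all genes, and 18 were lower with the alveolar threshold at 50, 15 in DESeq2 and 5 without the pool block. Fabp4, a fatty acid binding protein induced by PPARγ, stood at 167, 153 and 148 CPM in cycling cells of the tolerance, asthma and control pools, against 234, 299.8 and 263 CPM in non-cycling cells (log2 fold change -0.85, SE 0.11, adjusted p = 5.81e-08). Ear2, an eosinophil-associated ribonuclease, stood at 1531, 1150.0 and 761 CPM in cycling and 1894, 1664 and 1672 CPM in non-cycling cells (log2 fold change -0.73, SE 0.08), and did not pass without the pool block (-0.68). Lpl, lipoprotein lipase, stood at 1107, 979 and 1209.8 CPM in cycling and 1620.1, 1536 and 1725 CPM in non-cycling cells (log2 fold change -0.65, SE 0.06). The groups did not overlap for any of these genes. Pparg, the nuclear receptor that sets the alveolar program, stood at 141, 157 and 193 CPM in cycling and 120.0, 132 and 165 CPM in non-cycling cells, and Siglecf, the surface lectin, at 68.6, 104 and 142 CPM in cycling and 68.0, 73.5 and 179 CPM in non-cycling cells. Neither passed the test, and neither did the scavenger receptor Marco (log2 fold change 0.12, SE 0.10).

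Counted per cell the identity genes were not lower, since cycling cells held more UMIs. The identity list gave 147, 105.4 and 174 UMIs in cycling cells of the tolerance, asthma and control pools, against 127, 105.3 and 134 in non-cycling cells, ratios of 1.16, 1.00 and 1.31. The lysosome list stood at 1.15, 1.07 and 1.24 times the non-cycling level per cell, and 29 cytosolic ribosomal proteins at 1.38, 1.24 and 1.62 times. Cell volume was not measured.

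Of 32 genes of lipid handling 1 was higher and 15 lower (11 in DESeq2 and 5 without the pool block). The lower shares of this list and of cholesterol synthesis below were above the 12.4% of all genes. Apoe, apolipoprotein E, stood at 35.3, 23.0 and 17.4 CPM in cycling cells of the tolerance, asthma and control pools, against 131, 51.5 and 73.9 CPM in non-cycling cells (log2 fold change -1.85, SE 0.20, adjusted p = 1.13e-09). Apoe is also among the interstitial macrophage markers, whose summed level outside the rule was 141, 107 and 39.2 CPM in cycling cells and 317, 167 and 117 CPM in non-cycling cells, and the part of such cells was not tested. With the alveolar threshold at 50 Apoe was still lower. Of 20 genes of cholesterol synthesis 0 were higher and 9 lower, with 1 lower in DESeq2 and 2 without the pool block. Mvd, a mevalonate decarboxylase, led them at 54.9, 40.2 and 36.3 CPM in cycling and 83.7, 76.8 and 80.1 CPM in non-cycling cells (log2 fold change -0.98, SE 0.17).

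**Figure D3:**
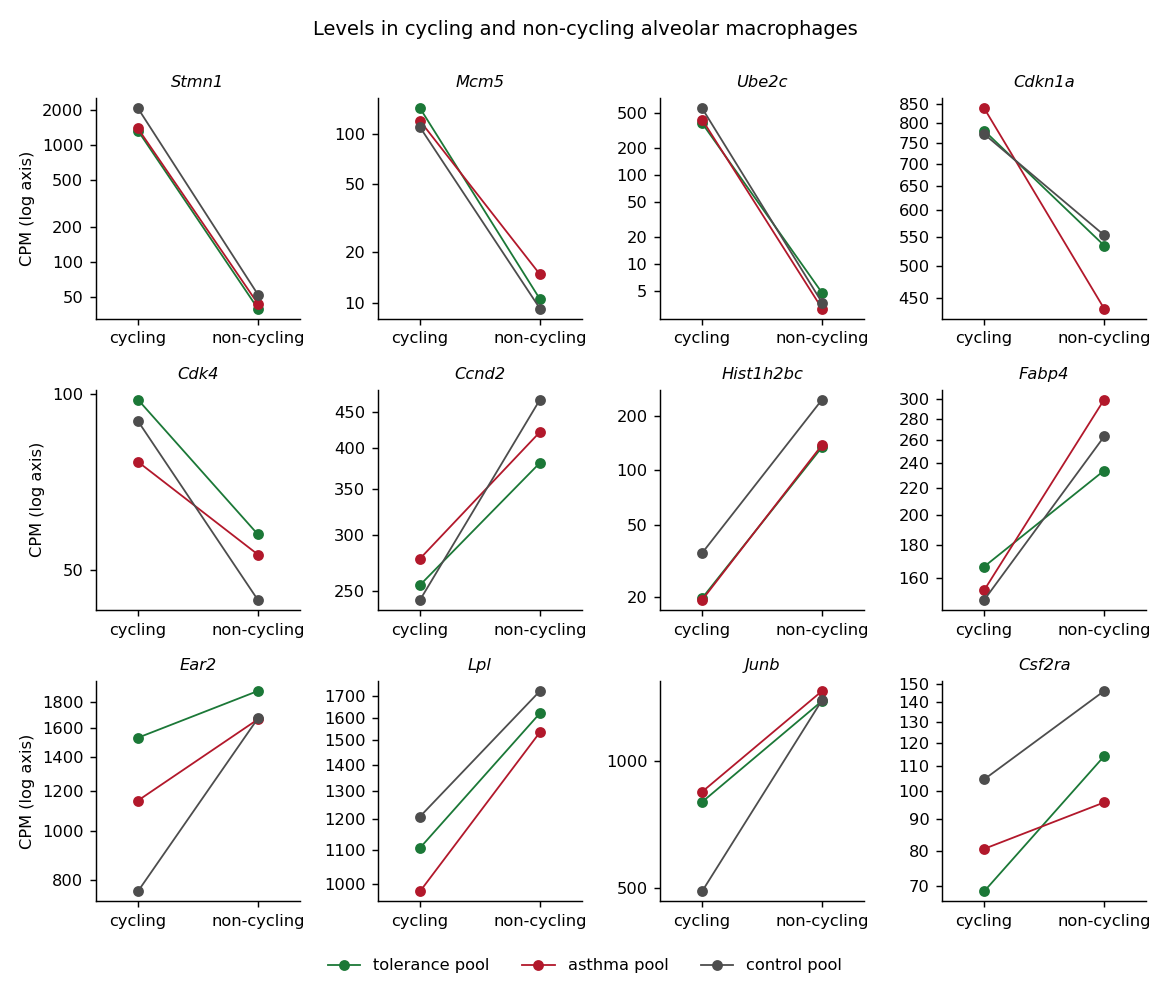
CPM (y axis, log scale, its own range in each panel) of 12 genes in cycling and non-cycling alveolar macrophages, with 1 line for each pool of mice. Stmn1, Mcm5 (141, 119 and 109 against 10.5, 14.7 and 9.22 CPM in the tolerance, asthma and control pools), Ube2c, Cdkn1a and Cdk4 are higher in the cycling cells of every pool, and Ccnd2, Hist1h2bc, Fabp4, Ear2, Lpl, Junb and Csf2ra are lower in every pool.

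Of 25 growth factor receptors and self-renewal factors 0 were higher and 17 lower, the lower share above the 12.4% of all genes. The number lower was 14 at the alveolar threshold of 50 and 8 with members holding markers of other types left out. It was 7 in DESeq2 and 0 without the pool block. Csf2ra, the binding chain of the GM-CSF receptor, stood at 68.6, 80.5 and 105 CPM in cycling cells of the tolerance, asthma and control pools, against 114, 95.9 and 146 CPM in non-cycling cells (log2 fold change -0.56, SE 0.13, adjusted p = 0.00125). It was lower within each pool, but the groups overlapped, and it was not past the test in lane 1 alone (-0.49) or without the pool block (-0.56). Myc, a growth factor response gene, did not pass at 31.4, 26.8 and 23.2 CPM in cycling and 16.8, 25.5 and 24.1 CPM in non-cycling cells.

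Genes of alternative activation, the program that interleukin 4 and 13 induce, were measured too: of 16 tested 0 were higher and 12 lower in cycling cells (5 in DESeq2 and 1 without the pool block), with a median log2 fold change of -0.61. The lower share, like that of the MHC class II genes below, was above the 12.4% of all genes. Ccl24, an eosinophil-attracting chemokine, stood at 86.2, 30.7 and 7.26 CPM in cycling cells of the tolerance, asthma and control pools, against 382, 525 and 7.14 CPM in non-cycling cells (log2 fold change -2.93, SE 0.22, adjusted p = 1.24e-13). Arg1, arginase, stood at 7.84, 3.83 and 1.45 CPM in cycling and 106, 58.1 and 1.04 CPM in non-cycling cells (log2 fold change -3.68, SE 0.36). Both were lower in the cycling cells of the tolerance and asthma pools and were low in both classes of the control pool, so the groups overlapped, and neither passed in DESeq2 (-2.22 and -2.999) or without the pool block (-3.04 and -3.84). Of 9 MHC class II genes 7 were lower (6 in DESeq2 and 0 without the pool block), among them H2-Eb1 at 496, 395 and 148 CPM in cycling and 808, 491 and 326 CPM in non-cycling cells (log2 fold change -0.77, SE 0.10), which did not pass without the pool block (-0.74).

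Of 27 interferon genes 1 was higher and 4 lower, a share near the 12.4% of all genes, and without the pool block none passed. The higher one, the chemokine Cxcl10, stood at 247, 67.1 and 2.90 CPM in cycling cells of the tolerance, asthma and control pools, against 79.5, 46.8 and 3.13 CPM in non-cycling cells (log2 fold change 1.10, SE 0.18, adjusted p = 9.86e-06). It was higher in the tolerance and asthma pools only, and its log2 fold change was 0.39 without the tolerance pool and -0.15 at a division threshold of 10 UMIs, neither past the test. It did not pass in lane 2 alone (0.71) or without the pool block (1.18) either. Ifitm3, an interferon-induced membrane protein, had a log2 fold change of -1.20 (SE 0.18), not past the test at the alveolar threshold of 50 (-0.23), in DESeq2 (-1.68) or without the pool block (-1.14). Of 25 inflammatory and immediate-early genes 1 was higher and 7 lower, a share above the 12.4% of all genes, with 5 lower in DESeq2 and 2 without the pool block. Junb, an AP-1 subunit, stood at 799.6, 845 and 491 CPM in cycling and 1388, 1466 and 1394 CPM in non-cycling cells (log2 fold change -1.11, SE 0.09, adjusted p = 3.01e-13), without overlap.

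Of 27 genes of lysosome and phagocytosis 0 were higher and 20 lower (19 in DESeq2 and 4 without the pool block), a share above the 12.4% of all genes. Cd63, a lysosomal tetraspanin, stood at 192, 134 and 221 CPM in cycling cells of the tolerance, asthma and control pools, against 412, 318 and 306 CPM in non-cycling cells (log2 fold change -0.97, SE 0.11, adjusted p = 1.09e-08), and the protease Ctsl at 206, 189.8 and 171 CPM in cycling and 326, 316 and 293 CPM in non-cycling cells (log2 fold change -0.81, SE 0.10). Smaller shares of the glycolysis, respiratory chain and ribosomal protein lists were lower, each still above the 12.4% of all genes. Of 16 glycolysis genes 5 were lower, among them Aldoa (log2 fold change -0.54, SE 0.08), of 37 nuclear-encoded respiratory chain genes 11 and of 29 cytosolic ribosomal protein genes 10, and none of these lists had a member higher in this fit. The ribosomal calls depended on the scaling: without TMM 3 ribosomal protein genes were higher and 2 lower, and 1 respiratory chain gene was higher and 6 lower. DESeq2 called 2 ribosomal protein genes and 5 respiratory chain genes lower, and without the pool block neither list had a gene past the test. Ribosome biogenesis had 4 higher and 3 lower of 23, shares near the 13.6% and 12.4% of all genes. Of 28 genes of proteasome and protein folding 7 were higher and 6 lower, shares above the 13.6% and 12.4% of all genes. The chaperone Hsp90aa1 stood at 882, 922 and 806 CPM in cycling and 523, 551 and 529 CPM in non-cycling cells (log2 fold change 0.62, SE 0.07). The nuclear transport GTPase Ran, which also guides the spindle, stood at 778, 809 and 841 CPM in cycling and 309.9, 339 and 269 CPM in non-cycling cells (log2 fold change 1.33, SE 0.08).

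Among genes outside the lists with at least 50 CPM, the 8 with the highest log2 fold changes were Pbk (9.03), Iqgap3 (7.90), Pimreg (7.77), Mxd3 (7.34), Melk (6.94), Shcbp1 (6.72), Lockd (5.76) and Cit (5.69). Pbk and Melk encode kinases of mitotic cells, Cit a kinase of cytokinesis, and Mxd3 a partner of the MAX factor. The 8 with the lowest were, besides Hist1h2bc and Hist1h1c, Slfn5 (-1.92), Aldoc (-1.46), Stk40 (-1.27), Kdm7a (-1.19), Tnfsf12 (-1.18) and S100a4 (-1.18). Aldoc encodes an aldolase, Kdm7a a histone demethylase and S100a4 a calcium-binding protein. Slfn5, Stk40 and S100a4 did not pass without the pool block (-2.03, -1.24 and -1.19).

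Members ranged in the share of their division UMIs that came from genes of DNA synthesis. A member was called replication-leaning if over 50% of its division UMIs came from Pclaf and Rrm2, which act in DNA synthesis, and mitosis-leaning otherwise. This is a range with a line drawn in it: 65 of the 228 members had between 40% and 60%. Replication-leaning cells were 15 of 63 members in the tolerance pool (23.8%, exact 95% interval 14.0 to 36.2%), 25 of 85 in the asthma pool (29.4%, 20.02 to 40.3%) and 14 of 80 in the control pool (17.5%, 9.91 to 27.6%), with intervals that overlapped. No member held Pclaf or Rrm2 alone, 15 held only UMIs of the other division genes, and 213 held both kinds.

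Replication-leaning and mitosis-leaning members were compared within pools by the same edgeR test, with the 6 division genes left out. The split itself was made on genes of these stages. The counts of replication and mitosis genes below therefore describe the split and are not independent evidence of stages. Of 4417 genes 84 (1.9%) were higher and 66 (1.49%) lower in replication-leaning cells. This comparison rests on few cells: without the pool block 2 were higher and 4 lower, DESeq2 called 1 and 6, and with 1 pool left out 19 to 44 were higher and 26 to 45 lower, the fewest without the control pool. Of 34 replication genes 13 were higher and 0 lower, of 18 nucleotide synthesis genes 6 and 0. Of 44 spindle genes 0 were higher and 14 lower, of 22 kinetochore genes 0 and 5. Mcm6, a subunit of the replicative helicase, stood at 151, 249 and 241 CPM in replication-leaning cells of the tolerance, asthma and control pools, against 80.6, 59.6 and 94.7 CPM in mitosis-leaning cells (log2 fold change 1.48, SE 0.24, adjusted p = 5.28e-07). Dut, which clears dUTP, stood at 327, 386 and 436 CPM in replication-leaning and 164, 165 and 172 CPM in mitosis-leaning cells (log2 fold change 1.22, SE 0.18). Hells, a chromatin remodeler, had a log2 fold change of 1.29 (SE 0.26). Values of all 3 pools were apart for these genes.

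Calls of 4 other genes depended on single pools. Cdc6, which loads the helicase, stood at 87.7, 98.2 and 64.9 CPM in replication-leaning and 33.8, 27.1 and 25.8 CPM in mitosis-leaning cells (log2 fold change 1.54), and gave 1.60, 1.39 and 1.61 without the tolerance, asthma and control pools, none past the test. Without the asthma pool Mcm2 gave 1.12 against 1.59 in all pools and E2f1 0.83 against 1.37, neither past the test, and both passed without the tolerance or the control pool. Ccne2, cyclin E2, with 1.53 in all pools, passed without the tolerance pool but not without the asthma pool (1.23) or the control pool (1.28).

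Ube2c stood at 63.7, 144 and 148 CPM in replication-leaning cells of the tolerance, asthma and control pools, against 486, 534 and 639 CPM in mitosis-leaning cells (log2 fold change -2.18, SE 0.20, adjusted p = 2.34e-24). Cdc20 stood at 15.9, 19.6 and 27.8 CPM in replication-leaning and 107, 195 and 133 CPM in mitosis-leaning cells (log2 fold change -2.79, SE 0.40). Ccnb1 stood at 23.9, 0 and 27.8 CPM in replication-leaning and 70.2, 149 and 174 CPM in mitosis-leaning cells (log2 fold change -2.99, SE 0.44). The groups were apart for all 3 genes. The kinetochore genes Cenpa (-2.06), Cenpf (-1.9995) and Cenpe (-1.93) and the cohesin subunit Rad21 (-1.23) were lower too. Ube2c, Cdc20, Cenpa, Cenpf and Cenpe were also lower in DESeq2, and Dut was the gene it called higher. Mcm6, Hells, Mcm2, Ccne2, E2f1, Ccnb1, Rad21 and Plet1 passed neither in DESeq2 nor without the pool block. Cdc6 and Cenpa did not pass without the pool block. Of 28 identity genes 5 were higher and 1 lower, of 25 lysosome genes 2 were higher, and of 6 MHC class II genes and 17 interferon genes none passed. Plet1 stood at 1108, 1191 and 1251 CPM in replication-leaning and 936, 753 and 966 CPM in mitosis-leaning cells (log2 fold change 0.45, SE 0.12), 0.35 without the asthma pool and 0.47 without the control pool, neither past the test.

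**Figure D4:**
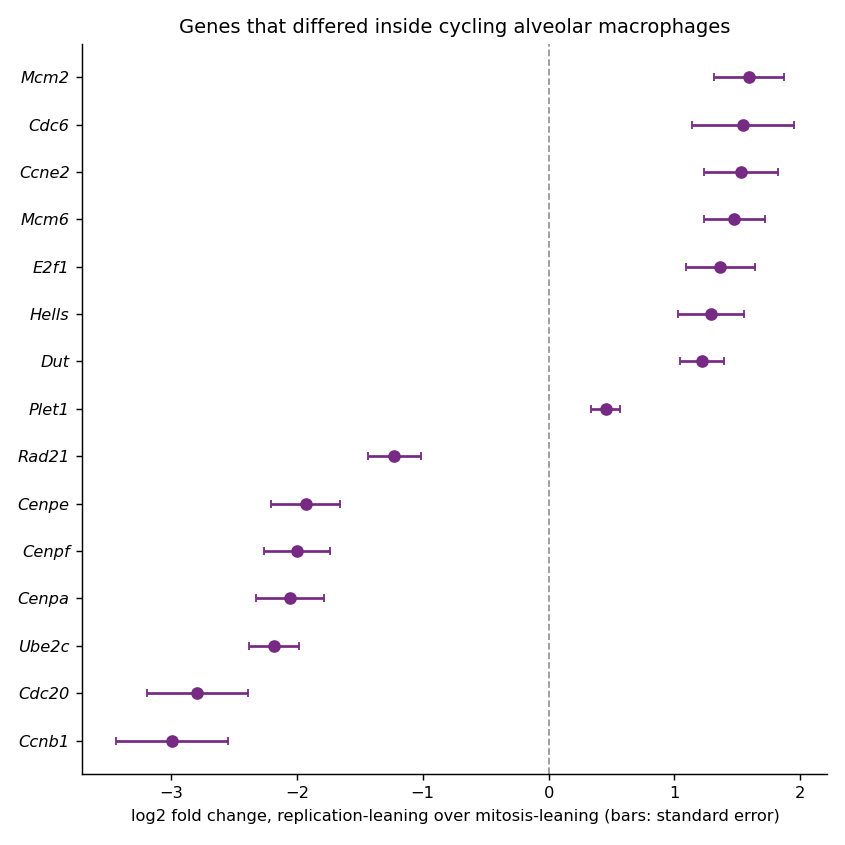
Log2 fold change (x axis, with its standard error) of replication-leaning over mitosis-leaning cycling alveolar macrophages for genes named in the text (rows). Genes of DNA synthesis and E2f1 lie between 1.22 and 1.59, Plet1 at 0.45, and mitotic genes between Ccnb1 at -2.99 and Rad21 at -1.23.

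The promoters of these genes are shown because the stages are known to be driven through distinct short motifs: the cell cycle homology region (CHR, TTTGAA) and the CCAAT box in genes of mitosis, and E2F sites in genes of DNA synthesis. The windows run from 250 bases before to 50 after the annotated start (RefSeq, GRCm38.p6, 5′ to 3′ on the strand of the gene). A script searched them on both strands for the CHR letters TTTGAA, for the box CCAAT, and for the E2F letters TTTCCCGC or TTTGGCGC, and matches are in capitals. On the other strand a CHR match appears as TTCAAA, a box as ATTGG, and an E2F match as GCGGGAAA or GCGCCAAA. The 4 genes were chosen after their values were seen. Ube2c (chr2:164769679-164769978, plus strand) and Cdc20 (chr4:118437294-118437593, minus strand) were lower in replication-leaning cells, and Mcm6 (chr1:128359656-128359955, minus strand) and Cdc6 (chr11:98907901-98908200, plus strand) higher.
Ube2c: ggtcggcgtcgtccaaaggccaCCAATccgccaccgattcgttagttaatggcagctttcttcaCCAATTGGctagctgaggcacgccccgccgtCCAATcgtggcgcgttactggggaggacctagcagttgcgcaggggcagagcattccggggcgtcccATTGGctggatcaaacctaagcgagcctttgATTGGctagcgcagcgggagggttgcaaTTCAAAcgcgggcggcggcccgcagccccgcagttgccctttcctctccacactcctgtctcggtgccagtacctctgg
Cdc20: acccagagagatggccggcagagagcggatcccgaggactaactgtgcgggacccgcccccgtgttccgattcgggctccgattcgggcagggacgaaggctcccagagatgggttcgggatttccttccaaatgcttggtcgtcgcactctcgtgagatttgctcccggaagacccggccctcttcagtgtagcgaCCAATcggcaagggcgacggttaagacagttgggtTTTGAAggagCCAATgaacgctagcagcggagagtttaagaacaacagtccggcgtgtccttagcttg
Mcm6: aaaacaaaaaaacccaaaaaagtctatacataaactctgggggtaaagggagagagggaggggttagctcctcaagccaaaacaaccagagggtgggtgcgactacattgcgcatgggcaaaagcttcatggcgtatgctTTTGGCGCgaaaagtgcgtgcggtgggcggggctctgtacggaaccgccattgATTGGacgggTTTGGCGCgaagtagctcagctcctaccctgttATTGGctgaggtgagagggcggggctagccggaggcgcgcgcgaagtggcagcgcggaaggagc
Cdc6: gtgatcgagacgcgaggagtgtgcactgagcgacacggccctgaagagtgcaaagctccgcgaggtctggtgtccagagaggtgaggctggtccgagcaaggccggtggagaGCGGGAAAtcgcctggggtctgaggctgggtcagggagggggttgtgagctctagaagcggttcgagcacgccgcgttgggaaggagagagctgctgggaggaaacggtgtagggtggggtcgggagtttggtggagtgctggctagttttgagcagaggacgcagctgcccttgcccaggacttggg
Ube2c and Cdc20 each hold 1 CHR close to the start, with CCAAT matches before it in Ube2c and on both sides in Cdc20, and no E2F match. In Ube2c a CCAAT and an ATTGG overlap in CCAATTGG. Mcm6 holds 2 E2F matches and 2 CCAAT matches, and Cdc6 holds 1 E2F match. Among all 27025 genes with a window 20.2% held a CHR, 41.1% a CCAAT, 1.80% an E2F match and 7.97% both CHR and CCAAT. Of the 47 spindle genes higher in cycling cells 39 had a window, of which 74.4% held a CHR and 59.0% both CHR and CCAAT. Of the 45 replication genes 35 had one, of which 34.3% held an E2F match and 20% a CHR. Of the 1325 genes higher in cycling cells 1066 had a window, of which 21.6% held a CHR and 11.1% an E2F match. Among higher nucleotide synthesis genes 5.56% of 18 with a window held an E2F match. Among higher condensin and cohesin genes 50% of 10 held a CHR and 50% an E2F match. Among kinetochore genes 44% of 25 with a window held a CHR and 12% an E2F match. Shares of the other division lists are not given. Of the 66 genes lower in replication-leaning cells 56 had one, of which 57.1% held a CHR and 0 an E2F match, and of the 84 higher 70 had one, of which 14.3% held a CHR and 22.9% an E2F match. A match is a description of the letters and not a site of binding.

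The members were next set against the dividing cells most like them in the series, those of the C1q gate (at least 5 UMIs of C1qa, C1qb and C1qc, under 10 UMIs of Chil3, Ear1 and Krt79 per 10000). Only the tolerance pool (63 cycling alveolar and 60 cycling C1q cells) and the asthma pool (85 and 46) held enough of both. Of 6676 genes 896 (13.4%) were higher and 901 (13.5%) lower in cycling alveolar cells by edgeR's test with the pool as a block, and DESeq2 called 211 and 223. With 2 pools no pool could be left out, and these calls rest on n = 2. Of 41 replication genes 1 was higher and 2 lower, of 26 kinetochore genes 2 were higher and of 45 spindle genes 5 were higher and 1 lower, all shares under the 13.4% and 13.5% of all genes. Shares above these were found for condensin and cohesin (4 of 14 higher), the anaphase-promoting complex (3 of 11 higher), cyclins and their kinases (4 of 19 higher), cell cycle inhibitors (3 of 14 higher) and chromatin assembly and histones (6 of 25 lower). Hist1h1b stood at 82.3 and 53.7 CPM in cycling alveolar cells of the tolerance and asthma pools, against 126 and 151 CPM in cycling C1q cells (log2 fold change -1.11, SE 0.25), and E2f7 at 64.7 and 61.3 CPM in cycling alveolar and 24.1 and 16.6 CPM in cycling C1q cells (log2 fold change 1.52, SE 0.37). Neither passed in DESeq2.

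Among the cyclins D, Ccnd2 was higher and Ccnd1 lower in cycling alveolar cells, and Ccnd3 did not pass. Ccnd2 stood at 255 and 278 CPM in cycling alveolar cells of the tolerance and asthma pools, against 12.0 and 20.7 CPM in cycling C1q cells (log2 fold change 3.94, SE 0.30, adjusted p = 4.53e-36). Ccnd1 gave 2 UMIs in cycling alveolar and 172 in cycling C1q cells, 83.5-fold lower per UMI sequenced with a counting interval of 22.8 to 695. Ccnd3 stood at 119.5 and 80.5 CPM in cycling alveolar and 77.4 and 66.4 CPM in cycling C1q cells (log2 fold change 0.38, SE 0.27). Cdkn1a stood at 780.0 and 839 CPM in cycling alveolar and 194 and 245 CPM in cycling C1q cells (log2 fold change 1.79, SE 0.17). Both pools gave the same direction for each of these genes, without overlap.

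Of 28 alveolar identity genes 26 were higher in cycling alveolar than in cycling C1q cells (the gates used 3 other alveolar genes and the C1q genes). Krt19, Cidec, Fabp1 and Bhlhe41 gave 186, 127, 93 and 89 UMIs in cycling alveolar cells and 0 in cycling C1q cells, at least 63.9-fold, 43.6-fold, 31.9-fold and 30.6-fold higher with 3 counts over the group as the floor. Cidec coats lipid droplets, and Bhlhe41 is a transcription factor of alveolar macrophage self-renewal. Slpi, a secreted protease inhibitor, gave 622 UMIs against 0, at least 214-fold higher, and the chemokine Cxcl3 256 against 0, at least 87.9-fold higher. Maf, a transcription factor that restrains macrophage division, gave 0 UMIs in cycling alveolar and 44 in cycling C1q cells, at least 14.2-fold lower. Csf1r, the receptor of CSF1, stood at 122 and 65.2 CPM in cycling alveolar and 547 and 423 CPM in cycling C1q cells (log2 fold change -2.49, SE 0.20, adjusted p = 2.36e-32), while Csf2rb, the shared chain of the GM-CSF receptor, stood at 312 and 282 CPM in cycling alveolar and 124 and 156 CPM in cycling C1q cells (log2 fold change 1.00, SE 0.20) and did not pass in DESeq2.

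All 8 MHC class II genes tested were lower in cycling alveolar cells. Cd74, the invariant chain, stood at 3688 and 2898 CPM in cycling alveolar cells of the tolerance and asthma pools, against 17761 and 13829 CPM in cycling C1q cells (log2 fold change -2.36, SE 0.07, adjusted p = 1.49e-219), and its regulator Ciita at 23.5 and 21.1 CPM in cycling alveolar and 206 and 120.3 CPM in cycling C1q cells (log2 fold change -2.94, SE 0.31). Genes of alternative activation went both ways, with 6 higher and 7 lower of 15. Retnla, a resistin-like protein, gave 7 UMIs in cycling alveolar and 4246 in cycling C1q cells (log2 fold change -9.29, SE 0.20), and Mgl2, a lectin, 4 and 1645 UMIs (log2 fold change -8.64, SE 0.27). The lectin receptor Cd72 and the chemokine Ccl8 gave 0 UMIs in cycling alveolar and 297 and 193 in cycling C1q cells, at least 96.1-fold and 62.4-fold lower. Of the genes named here with 0 UMIs in 1 population, Krt19, Cidec, Fabp1, Bhlhe41, Slpi, Cxcl3, Cd72 and Ccl8 lost their call in DESeq2. No test result is given here for Maf. Cytosolic ribosomal protein genes were lower for 19 of 28. Both populations came from the same pools and lanes.

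Between pools, members were described by a rule of size with no test: a gene counted as past the rule if it differed at least 2-fold between pools, in the same direction in both lanes, with at least 100 UMIs over the 2 pools. Against the control pool, cycling cells of the tolerance pool had 68 of 2192 genes higher (3.1%) and 45 lower (2.05%), and those of the asthma pool 47 of 2241 higher (2.1%) and 19 lower (0.848%). Between the tolerance and asthma pools 7 of 1806 genes were higher (0.388%) and 2 lower (0.111%). Both allergen pools were set against the same control cells. Of the 113 genes past the rule between tolerance and control pools 78 also differed at least 2-fold in the same direction in non-cycling cells, and so did 42 of the 66 between asthma and control pools.

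Ccl17, a chemokine that attracts T cells, stood at 504, 224 and 2.90 CPM in cycling cells of the tolerance, asthma and control pools (257, 117 and 2 UMIs), and at 727, 422 and 14.2 CPM in non-cycling cells. The ratio to the control pool was 173-fold (95% interval 47.5 to 1440.0) in the tolerance pool and 77.2-fold (95% interval 20.9 to 645) in the asthma pool. Cxcl9, an interferon-induced chemokine, stood at 255, 32.6 and 2.90 CPM in cycling cells of the 3 pools in that order, and at 139, 76.3 and 5.29 CPM in non-cycling cells. Its ratio of tolerance to asthma pool was 7.82-fold (95% interval 4.70 to 13.8, counting error only) in cycling cells. The lanes of the tolerance pool differed for Cxcl9. Its log2 ratio of cycling over non-cycling cells was 2.28 in lane 1 and -0.66 in lane 2. Mmp12, macrophage elastase, stood at 335, 126 and 7.26 CPM in cycling cells of the tolerance, asthma and control pools. Isg15, an interferon-induced ubiquitin-like protein, stood at 325, 205 and 20.3 CPM in the same cells. Cycling and non-cycling cells showed the same order of pools for all 4 genes.

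Summed over 29 interferon genes, cycling cells stood at 3445, 2175 and 401 CPM in the tolerance, asthma and control pools, and non-cycling cells at 3362, 2520.0 and 473 CPM. Summed over 10 MHC class II genes, cycling cells stood at 7232, 5727 and 2769.6 CPM and non-cycling cells at 9672, 6662 and 4174 CPM, in the same order of pools. The largest other ratios of the asthma to the control pool were those of Cxcl3 (174 and 16.0 CPM), Ch25h, cholesterol 25-hydroxylase (312 and 30.5 CPM), Ifi27l2a (813 and 85.7 CPM) and AA467197 (172 and 21.8 CPM). No division list had more than 2 genes past the rule in any comparison between pools. Of 30 spindle genes with enough UMIs in the tolerance and control pools 2 were lower and 0 higher, and of 8 kinetochore genes 1 was lower. Of all genes 2.05% were lower there. In the asthma and control pools 0 of 33 spindle genes were past the rule and 1 of 8 kinetochore genes was lower, beside 0.848% of all genes. Median log2 ratios of the division lists, tolerance over control, ran from -0.69 (kinetochore) to 0.13 (replication). The spindle list stood at -0.53 and all genes at -0.09. Asthma over control, they ran from -0.41 (spindle) to 0.05 (replication), with all genes at -0.06.

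Part of the alveolar identity genes stood lower in the allergen pools. Of 28 identity genes 8 were lower and 2 higher in cycling cells of the tolerance pool and 3 lower and 1 higher in those of the asthma pool, against the control pool. Of all genes 2.05% were lower and 3.1% higher in the tolerance pool, and 0.848% and 2.1% in the asthma pool. The median log2 ratio of the list, tolerance over control, was -0.39 in cycling and -0.32 in non-cycling cells. Asthma over control, it was -0.27 in both. Marco stood at 127, 251 and 497 CPM in cycling cells of the tolerance, asthma and control pools, with a ratio of tolerance to control pool of 0.257-fold (95% interval 0.194 to 0.335). Fabp1, a fatty acid binding protein, stood at 78.4, 102 and 300.6 CPM in cycling cells, and Krt19, a keratin, at 143, 217 and 497 CPM, in the same order of pools. The control pool was highest for all 3 genes in cycling and in non-cycling cells. Gpnmb (49.0 and 186 CPM), the complement receptor C5ar1 (43.1 and 148 CPM) and Cox6b2 (37.2 and 144 CPM) were the other genes with the lowest ratios of the tolerance to the control pool. Gadd45g, Cttnbp2nl, Agap1, Cit and Itgb5 had, with Fabp1, the lowest ratios of the asthma to the control pool.

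Cycling cells of the tolerance and asthma pools differed least. Besides Cxcl9, Mmp12 and Ccl17, the genes higher in the tolerance pool were AA467197 (566 and 172 CPM), Rnase2a, Ifi203 and Mndal, and Lpin1 was lower. The chemokine Ccl3 stood at 290.0 CPM in cycling cells of the tolerance pool and 652 CPM in those of the asthma pool, a ratio of 0.445-fold (95% interval 0.364 to 0.541), against 318 and 350.0 CPM in non-cycling cells of the same pools. None of these 9 genes differed 2-fold in the same direction in non-cycling cells. Cxcl9, Mmp12, Ccl17 and AA467197 were higher in the tolerance than in the asthma pool there too, by less than 2-fold. Non-cycling levels of Rnase2a, Ifi203, Mndal and Lpin1 are not given here. The 9 genes were picked by their ratio in cycling cells, and whether the differences are particular to these cells was not tested.

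**Figure D5:**
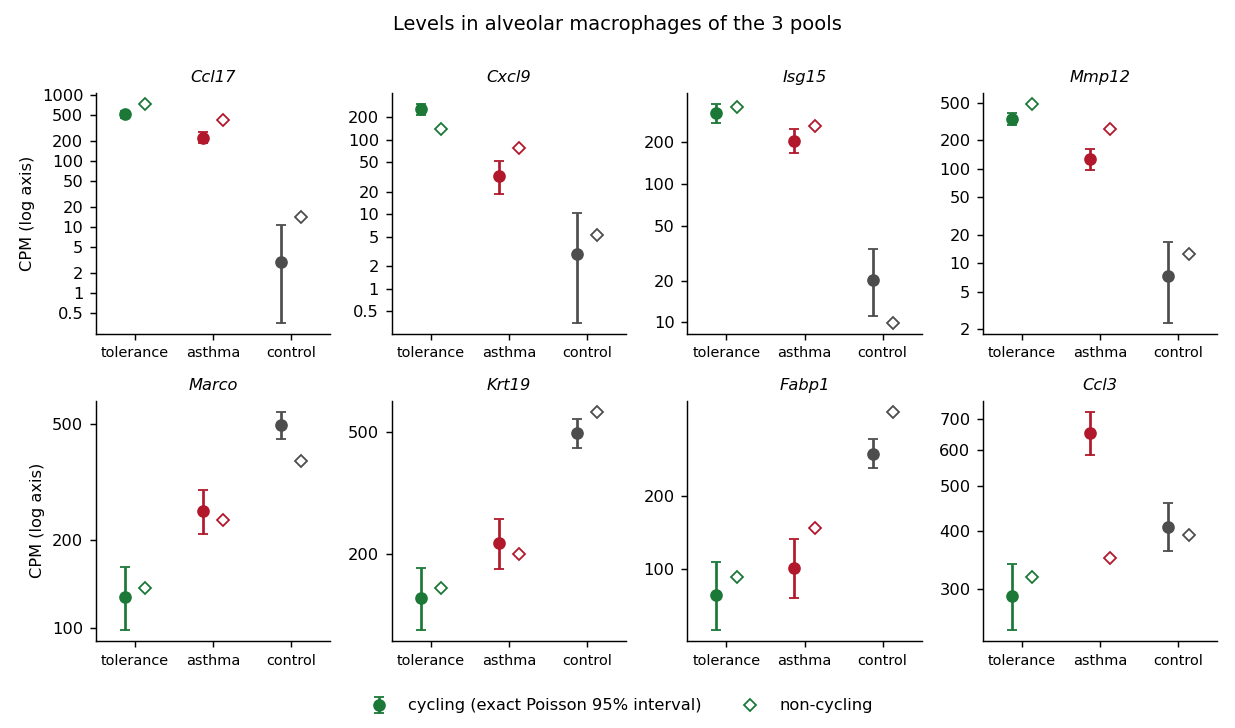
CPM (y axis, log scale, its own range in each panel) of 8 genes in cycling cells (filled, with exact Poisson 95% intervals that cover counting error only) and non-cycling cells (open) of the tolerance, asthma and control pools. Ccl17, Cxcl9, Isg15 and Mmp12 are lowest in the control pool, Marco, Krt19 and Fabp1 are highest there, and Ccl3 is highest in cycling cells of the asthma pool at 652 CPM.

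The antibody tag gave a protein readout that the rule did not use. The CLEC12A tag averaged 108.5 UMIs per cell in cycling and 67.6 in non-cycling cells of the tolerance pool, 67.4 and 44.4 in the asthma pool and 53.2 and 34.8 in the control pool. Cycling cells were higher in 3 of 3 pools, with ratios of 1.61, 1.52 and 1.53 and a geometric mean of 1.55. An exact two-sided permutation test over the 3 pools gave p = 0.25, the smallest that 3 pairs allow. Other counts per cell moved with it. The hashtag of the pool was 1.39, 1.14 and 1.24 times the non-cycling level, and per RNA UMI the CLEC12A tag was 1.13, 1.17 and 0.94 times. Among cells of 5000 to 20000 UMIs the ratios of the mean tag level were 1.46, 1.32 and 1.32, and lane 1 of the control pool gave 0.98. The part of depth and cell size in the tag level was not tested.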

How the data were processed

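Cell by gene UMI counts and antibody tag counts were deposited by the authors as 6 matrices (2 lanes by 3 treatments), made with Cell Ranger 3.1.0, STAR and mm10 and split by hashtag in Seurat 3.1.5. The counts are raw, and the matrices held 7897139 to 11459855 UMIs. GEO gives 2 samples, the lanes, and the treatments were taken from their labels.

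The members and gene lists were chosen with earlier results of these data known. UMIs were summed per pool (3 pools) and class and tested with edgeR 4.0.16 (R 4.3.3; quasi-likelihood F test, TMM scaling, filterByExpr, pool as a block, Benjamini-Hochberg adjustment at 0.05), with the 15 rule genes left out. The block was used because both classes come from the same pools. SE is the absolute log2 fold change over the square root of F. DESeq2 1.42.0, other thresholds, depths, doublet treatment, leaving out a pool and single lanes were the alternatives, 21 for the main comparison, 8 for the stages and 4 for the C1q comparison. Doublets were scored with Scrublet (scanpy 1.11.5) and not removed in the main fit. Intervals of shares are Clopper-Pearson and those of counts exact Poisson, at 95%, and cover counting error only. In simulated data for the main comparison with 9545 genes, 50 of 50 genes raised 3-fold and 47 of 50 raised 2-fold were called. So were 43 of 50 genes set to 0.5-fold, 50 of 50 set to 0.333-fold and 4 of 9345 unchanged genes. The simulated pools did not differ from each other, so these counts do not give the error rate in the real data.

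Genes were named by a rule: in each list up to 4 genes with the largest change past the test and members whose role is described, outside the lists 8 in each direction with at least 50 CPM, and between pools 6 in each direction. Other genes in the text were chosen after their values were seen. Some genes of the rule are not reported here. Promoter windows (300 bases) are from RefSeq GRCm38.p6. Python 3.11.15 with numpy 2.4.6, pandas 2.3.3, scipy 1.17.1 and matplotlib 3.10.9 did the rest.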

Additional observations from a re-analysis of the deposited data

Results flagged for a closer look

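For 4 of 98 genes compared, the change of cycling over non-cycling cells ran one way in both lanes of one pool and the other way in both lanes of another. The difference between pools was not tested, because each treatment has 1 pool. The log2 ratio of cycling over non-cycling cells for Cdk6 was 0.28 and 0.129 in lanes 1 and 2 of the tolerance pool, against -0.953 and -0.213 in the control pool, a difference of 0.788. For Siglecf it was 0.004 and 0.017 in the tolerance pool, against -0.599 and -0.171 in the control pool, a difference of 0.396. For Marco it was -0.037 and -0.194 in the tolerance pool, against 0.052 and 0.598 in the control pool, a difference of -0.441. For Ccl3 it was -0.232 and -0.056 in the tolerance pool, against 0.973 and 0.821 in the asthma pool, a difference of -1.041.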

How the results depend on the processing

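Each treatment has 1 pool, so these counts describe 3 pools, and the stage comparison rests on 54 replication-leaning cells. The number of genes higher and lower in cycling cells was 882 and 495 in DESeq2, 858 and 198 without the pool block, 824 and 542 in lane 1 alone and 818 and 574 in thinned cells. The number lower was 774 in lane 2 alone and 778 with members holding markers of other types left out, a fit that kept all non-cycling cells. Leaving out 1 pool gave 1040.0 to 1107 higher and 769 to 832 lower, the fewest without the asthma pool. Without TMM 1484 were higher and 813 lower, and the median of all genes was 0.03 in place of -0.05. For the stages, higher and lower counts were 1 and 6 in DESeq2, 2 and 4 without the pool block and 29 and 35 without members near the even split, and leaving out 1 pool gave 19 to 44 and 26 to 45. For the C1q comparison DESeq2 gave 211 and 223. No pool could be left out there. Shares of cycling cells in the tolerance, asthma and control pools were 9.08%, 7.71% and 6.21% among cells of 5000 to 20000 UMIs and 4.74%, 3.24% and 2.67% at a division threshold of 10. Genes past the 2-fold rule numbered 131 in lane 2 for the asthma over the control pool, 178 in lane 1 for the tolerance over the control pool, and 34 and 29 in lanes 1 and 2 for the tolerance over the asthma pool. The CLEC12A ratios in cells of 5000 to 20000 UMIs were 1.46, 1.32 and 1.32. Causes were not tested.

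Genes that changed sign were, with 1 exception, past no test in either setting. Pttg1 had a log2 fold change of 0.0211 without TMM, 0.005 with members holding markers of other types left out, 0.0887 in lane 2 and 0.18 in thinned cells. Marco had -0.0095 with members holding markers of other types left out and -0.11 in lane 1, and -0.0421 to 0.20 with 1 pool left out. Myc had -0.20 in lane 1 and -0.0737 to 0.39 with 1 pool left out. Cdk6 ranged from -0.31 to 0.0828 and Siglecf from -0.30 to 0.23 with 1 pool left out. The exception, Cxcl10, had -0.15 at a division threshold of 10. Of the named genes in the main comparison, 1562 values over all alternatives kept direction and call, 26 lost the call and 12 changed sign.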
